A study of Mus musculus with 10 samples.

Results

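The mu, pi and theta glutathione transferases were followed in mouse liver after an overdose of acetaminophen. Their probes were those named on the array for Gstm1 to Gstm6, Gstp1, Gstt1, Gstt2 and Gstt3, which gave 18 probes of 10 genes among 39429 probes that are no control. All 18 were among the 29587 probes kept after a filter on dim probes. Gstm7, Gstp2 and Gstt4, of the same classes, were not among these members and were listed with the other glutathione transferases. Of these, Gstt4 did not pass the filter. Female C57BL/6 mice of 8 weeks were fasted for 24 h and given 1 intraperitoneal injection, either 350 mg/kg acetaminophen in phosphate-buffered saline or the saline alone, and livers were taken at 3, 8, 24, 48 or 72 h. All control mice had also been fasted. Each of the 10 arrays set the liver RNA of 1 treated mouse, in Cy5, against that of 1 control mouse of the same time point, in Cy3, with 2 arrays per time point. The 2 values of a probe are given below in the order of the treated mouse number, which was 1 and 3 except at 8 h, where it was 2 and 3. The treated RNA carried Cy5 on every array, so a probe's dye effect and the treatment cannot be told apart at a single time point, whereas differences between time points do not carry it. Whole liver was measured, in which fewer cells of a type and less RNA per cell cannot be told apart.

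Glutathione transferases join the thiol of glutathione to electrophiles and so make them easier to excrete. In the liver they act beside the oxidation of acetaminophen to a reactive quinone imine, which glutathione traps, and the pi enzyme is known to catalyse that conjugation. The mu genes lie together in a cluster, as do the theta genes, and the family's close relatives in sequence can share probe signal.

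Probe positions were checked first, because paralogues of this family are alike in sequence. On the mm9 build given by the array, 17 of the 18 probes lay on the chromosome that RefSeq gives for their gene. The order of the 6 mu genes on chromosome 3 by probe position was Gstm5, Gstm6, Gstm3, Gstm2, Gstm1 and Gstm4, the same as in RefSeq (GRCm38.p6), and the order Gstt3, Gstt1 and Gstt2 on chromosome 10 was also the same. The exception was the Gstm1 probe A_55_P2062190, placed at chr5:117082490-117082549 on the minus strand. Its nearest neighbours with a named probe there were Srrm4 and Suds3, 193131 and 459717 bases away, and RefSeq lists the pseudogene Gstm2-ps1 between the same neighbours. The accession listed for the probe was that of Gstm1 alone, and the other Gstm1 probe, A_55_P1966432, lay at chr3:107815595-107815654. Whether the chromosome 5 probe reads the pseudogene, Gstm1 or both was not tested, and its values are therefore given on their own.

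Among 39429 probe sequences compared without gaps, 3 member probes shared a stretch of at least 25 bases at 85% identity or more with a probe of another gene. Probes were not compared with transcripts, so this search cannot show that the other member probes read their own gene alone. The chromosome 5 Gstm1 probe and the Gstm3 probe A_55_P2102060 shared 27 bases, of which 25 were identical. They are shown because both probes gave deep falls, and capitals mark the bases that differ (C5G and T16C, counted from 1 at the 5′ end of the stretch as shown).
Gstm1 A_55_P2062190: tcatCtacaataaagTctgaaacacac
Gstm3 A_55_P2102060: tcatGtacaataaagCctgaaacacac

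The Gstp1 probe A_51_P374464 and a probe of its neighbour Gstp2 shared 35 bases, of which 30 were identical, or 85.7%. They are shown because Gstp1 was the member with the largest rise, and capitals again mark the differing bases (T14G, C19A, C21G, C29G and C30A).
Gstp1 A_51_P374464: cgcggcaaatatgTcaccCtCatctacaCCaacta
Gstp2 A_55_P2008704: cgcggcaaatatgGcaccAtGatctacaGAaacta

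Another 3 probes are given whole. The second Gstp1 probe carries accessions of both Gstp1 and Gstp2, the Gstm5 probe is the only mu probe that rose at 48 h, and the Gstm4 probe A_65_P02177 spans 353 genomic bases and so crosses an intron.
Gstp1 A_55_P2031668: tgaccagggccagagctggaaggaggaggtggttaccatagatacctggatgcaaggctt
Gstm5 A_51_P260169: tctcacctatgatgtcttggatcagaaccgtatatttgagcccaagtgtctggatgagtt
Gstm4 A_65_P02177: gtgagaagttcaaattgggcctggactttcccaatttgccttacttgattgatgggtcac

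Ratios are log2 of treated over control, so that negative values are falls, and are given as the mean ± SE of 2 arrays from limma, with p-values adjusted over all 29587 kept probes by the Benjamini-Hochberg method; a probe was called at an adjusted p under 0.05. On that basis 1 of 18 probes rose at 3 h and none fell, where 3.06% of all kept probes rose and 4.03% fell. At 8 h 3 rose and none fell, against 5.16% and 7.16% of all probes; with the median centring described below, none rose and 3 others fell. At 24 h none rose and 10 fell, against 3.41% and 6.71%. At 48 h 3 rose and 12 fell, against 18% and 12.7%. At 72 h none was called in either direction by limma, as was true of all probes (0%), although 3 of the 18 and 864 of all probes had an unadjusted p under 0.05. The median over the 18 probes was 0.41 at 3 h and 0.19 at 8 h, then -1.16 at 24 h and -1.35 at 48 h, and returned to -0.03 at 72 h, while the median of all probes lay between -0.0139 and -0.000625. Leaving out 1 array moved some counts: the 24 h count was 5 without mouse 3, the 8 h count 0 without mouse 2 and 1 without mouse 3, and the 3 h count 0 without its mouse 1 or either 8 h array and 2 without its mouse 3 or either 48 h array. By gene, 7 of the 10 had a falling probe at 24 h and 7 at 48 h. Genes with several probes had more chances of such a call, and the matching share of all genes was not worked out. With only the brightest probe of each gene, 7 of the 10 fell at 24 h and 7 at 48 h, where 1704 and 3236 fell among all genes.

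**Figure D1:**
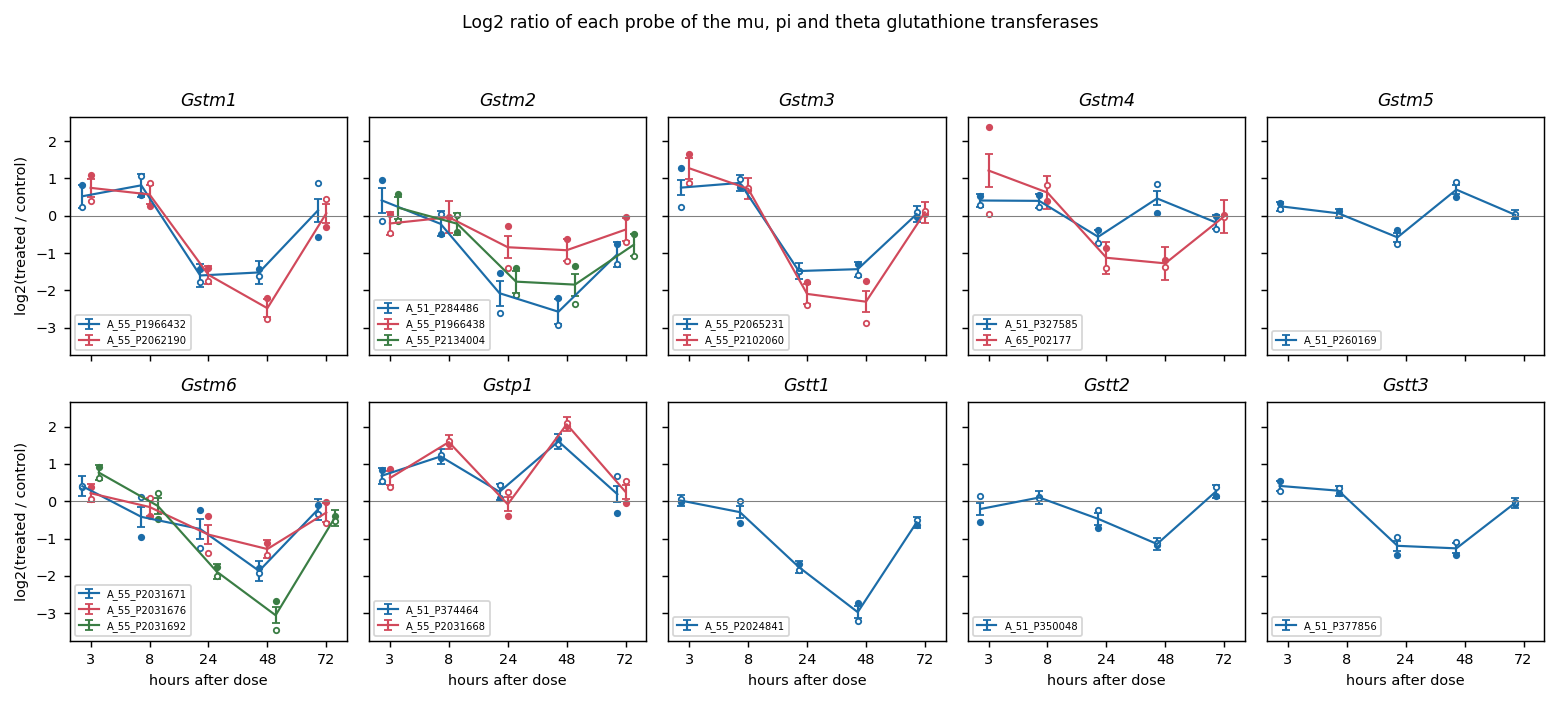
Log2 ratio of treated over control liver (vertical axis) against hours after the dose (horizontal axis, evenly spaced), 1 panel per gene and 1 colour per probe. Filled points are the array of treated mouse 1 (mouse 2 at 8 h), open points that of mouse 3, and lines with bars the mean ± SE of limma; the theta probes and 11 of the 13 mu probes lie below 0 at 24 and 48 h, while Gstm5 and the Gstm4 probe A_51_P327585 lie above 0 at 48 h and both Gstp1 probes are highest at 8 and 48 h.

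The calls depended on how the arrays were made comparable. The normalization used here fits a curve (loess) through each array's ratios along intensity. Centring each array on its median instead shifted the median of all probes to -0.226 at 3 h and -0.165 at 8 h, and the members lay below even that, with medians of -0.49 and -0.31. Of the 18 member values, 16 were above 0 at 3 h with loess and 2 with centring, and at 8 h 11 were above 0 with loess and 5 with centring, so the direction of most early values is not settled. With centring the 3 calls at 8 h were falls of Gstm2 (-0.94 for A_51_P284486 and -0.92 for A_55_P2134004) and of Gstm6 (-1.09 for A_55_P2031671), none of them a call with loess. At 24 h 17 were below 0 with loess and 18 with centring, and at 48 h 14 were below 0 with both. Rescaling the arrays to an equal spread ended all 29 calls of single probes but turned the direction of none of them. With that rescaling the members' median was -2.19 at 24 h and -0.86 at 48 h, so the falls were larger at 24 h and smaller at 48 h, and the fitted errors rose, for Gstm1 A_55_P1966432 at 24 h to an SE of 1.52 around -2.79. Over all probes, 43.2%, 41.9%, 33.7% and 58.7% of the calls at 3, 8, 24 and 48 h were rises with loess, against 17.5%, 7.04%, 2.89% and 86.9% with centring; with rescaling the share was 53.2%, 45.1% and 79% at 8, 24 and 48 h, with no call at 3 h.

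**Figure D2:**
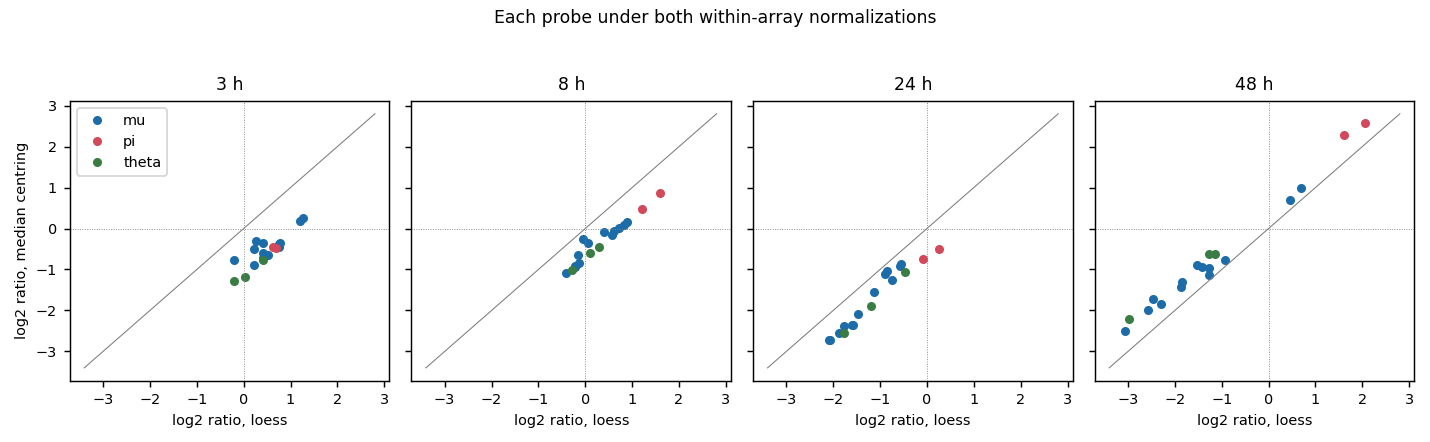
Log2 ratio of each of the 18 probes with loess (horizontal axis) and with median centring of each array (vertical axis) at 3, 8, 24 and 48 h, coloured by class, with the diagonal of equal values. At 3, 8 and 24 h every point lies below the diagonal, and at 48 h every point lies above it.

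The mu class makes up 13 of the probes and 6 of the genes. These enzymes are soluble dimers whose subunits are abundant in hepatocytes. At 24 h all 13 probes were below 0 on both arrays and 8 were called; at 48 h 11 were below 0 on both arrays, 9 were called as falls and 1 as a rise. The class median was -1.48 at 24 h and -1.52 at 48 h.

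Gstm1 encodes a major hepatic mu subunit. Its chromosome 3 probe A_55_P1966432 read 0.82 and 0.22 at 3 h, 0.55 and 1.08 at 8 h, -1.42 and -1.78 at 24 h, -1.43 and -1.61 at 48 h, and -0.58 and 0.87 at 72 h. The arrays of 24 and 48 h all lay below those of the earlier time points, and the 72 h arrays had opposite signs. It was called at 24 h (-1.60 ± 0.31, 3.03-fold lower, adjusted p = 0.0149 by limma) and at 48 h (-1.52 ± 0.31, adjusted p = 0.00814 by limma). Both calls were fragile: the 24 h call was lost without either 24 h array, with values of -1.42 and -1.78, and the 48 h call was lost without the array of mouse 3 (-1.43) and with median centring (-0.89).

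The chromosome 5 probe A_55_P2062190 read 1.09 and 0.41 at 3 h, 0.27 and 0.87 at 8 h, -1.41 and -1.76 at 24 h, -2.19 and -2.76 at 48 h, and -0.31 and 0.44 at 72 h. Its mean at 24 h, -1.58 ± 0.25, lay within the SE of the chromosome 3 probe, while at 48 h the chromosome 5 probe was lower, at -2.48 ± 0.25 (5.56-fold lower, adjusted p = 0.000386 by limma). That difference between probes was not tested. The 24 h call of the chromosome 5 probe was lost without the array of mouse 3 (-1.41). Leaving the chromosome 5 probe out gave 9 falls at 24 h and 11 at 48 h among the other 17 probes.

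Gstm2, another mu subunit, had 3 probes next to each other on chromosome 3, from chr3:107784622-107784681 to chr3:107784948-107785007. A_51_P284486 read 0.96 and -0.13 at 3 h, -0.49 and 0.06 at 8 h, -1.53 and -2.62 at 24 h, -2.21 and -2.92 at 48 h, and -0.76 and -1.29 at 72 h. It fell 4.21-fold at 24 h (-2.07 ± 0.34, adjusted p = 0.00664 by limma) and 5.94-fold at 48 h (-2.57 ± 0.34, adjusted p = 0.00114 by limma). Its 2 arrays at 72 h were still below 0, at a mean of -1.03 that did not pass the test.

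A_55_P2134004, which overlaps it by a few bases, fell by 1.76 ± 0.30 on the log2 scale at 24 h (arrays -1.40 and -2.13) and by 1.84 ± 0.30 at 48 h (arrays -1.34 and -2.35). The third Gstm2 probe, A_55_P1966438, was not called at any time point with the settings used: it read -0.28 and -1.40 at 24 h and -0.62 and -1.22 at 48 h, with an adjusted p of 0.0564 by limma at 48 h. It became a call in 8 other settings at 24 h, with -2.20 from the software's own log ratio, and in 10 at 48 h. One of its spots was an outlier at 8 h, so its 8 h value of -0.04 comes from a single array. Without the array of mouse 3, both Gstm2 calls at 24 h (-1.53 and -1.40) and the 48 h call of A_55_P2134004 (-1.34) were lost.

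Gstm3, likewise a liver mu subunit, was the only mu gene called as a rise early. A_55_P2065231, which spans 1260 genomic bases and so crosses an intron, read 1.27 and 0.24 at 3 h, 0.78 and 0.98 at 8 h, -1.48 and -1.48 at 24 h, -1.28 and -1.58 at 48 h, and -0.02 and 0.11 at 72 h. The 24 h values matched between arrays to within 0.00759, the smallest gap of any member at that time. It was called at 8 h (0.88 ± 0.21, 1.84-fold, adjusted p = 0.0306 by limma), a call lost in 10 of the other settings, where adjusted p reached 0.694, among them median centring (0.15) and the omission of either 8 h array (0.98 and 0.78). At 24 h it was 2.79-fold lower and at 48 h 2.69-fold lower (adjusted p = 0.00317 and 0.00167 by limma); the 48 h call did not pass with median centring (-0.94).

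A_55_P2102060 read 1.67 and 0.88 at 3 h, 0.69 and 0.75 at 8 h, -1.79 and -2.40 at 24 h, -1.74 and -2.86 at 48 h, and 0.04 and 0.14 at 72 h. Its 3 h rise of 1.27 ± 0.28 (adjusted p = 0.0346 by limma) was the single call of that time point, and it was lost without either 3 h array (0.88 and 1.67), without either 8 h or either 72 h array (1.27 in each case), and with median centring (0.24). The falls at 24 h (-2.09 ± 0.28) and 48 h (-2.30 ± 0.28) were lost in no setting except the rescaling. In the control livers this probe had its lowest levels at 3 h, 9.19 and 10.03 on the log2 intensity scale, against 10.54 to 11.79 at the later times, and the control level differed over time (adjusted p = 0.0444 by a limma F test). The treated livers at 3 h, at 10.85 and 10.90, lay within the range of treated and control livers at 72 h.

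Gstm4 had no called probe, and its probes parted at 48 h. A_65_P02177 read 2.36 and 0.06 at 3 h, the widest gap between arrays of any member at any time, and then 0.41 and 0.84 at 8 h, -0.86 and -1.39 at 24 h, -1.19 and -1.36 at 48 h, and 0.01 and -0.04 at 72 h. Its 48 h value of -1.27 ± 0.44 had an adjusted p of 0.0597 by limma and became a call in 9 other settings, among them without either 3 h array (-1.27). A_51_P327585 read -0.39 and -0.74 at 24 h and 0.08 and 0.85 at 48 h, so that the 48 h values of the 2 probes had opposite signs. The ratio of A_51_P327585 differed between 24 and 48 h, by 1.03 ± 0.26 (adjusted p = 0.0482 by limma).

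Gstm5 is a mu gene better known from brain and testis than from liver. Its probe read 0.33 and 0.18 at 3 h, 0.12 and 0.01 at 8 h, -0.39 and -0.76 at 24 h, 0.50 and 0.91 at 48 h, and -0.01 and 0.05 at 72 h. It fell 1.49-fold at 24 h (-0.58 ± 0.12, adjusted p = 0.0201 by limma) and was 1.62-fold higher at 48 h (0.70 ± 0.12, adjusted p = 0.00376 by limma). It was the only mu probe called in opposite directions at 24 and 48 h. The control livers of 24 h held its highest levels, 9.19 and 8.90 against 7.97 to 8.44 in the other control livers, and the treated livers of 24 h read 8.80 and 8.13; the control level over time did not pass the test (adjusted p = 0.0871 by limma). Both calls were lost without the array of mouse 3 of their time point (-0.39 and 0.50), and the 24 h call also with the slide as a fixed block (-0.69, adjusted p = 0.06 by limma).

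Gstm6 gave the deepest fall of the mu class. A_55_P2031692 read 0.91 and 0.62 at 3 h, -0.48 and 0.23 at 8 h, -1.77 and -2.00 at 24 h, -2.67 and -3.44 at 48 h, and -0.39 and -0.52 at 72 h. It was 3.69-fold lower at 24 h (adjusted p = 0.00111 by limma) and 8.30-fold lower at 48 h (-3.05 ± 0.21, adjusted p = 9.59e-05 by limma). The ratio fell from 24 to 48 h by a further -1.17 ± 0.29 (adjusted p = 0.0452 by limma). Over that step the mean control level rose from 11.8 to 12.3 and the treated level fell from 9.9 to 9.3 on the log2 intensity scale. At 3 h the mean control level was 10.83, and the control level over time did not pass the test (adjusted p = 0.0553 by a limma F test). The treated livers of this probe at 48 h, at 9.45 and 9.09, lay below every control liver, which ranged from 10.83 to 12.53.

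The other Gstm6 probes fell less with the settings used. A_55_P2031671 read -0.25 and -1.24 at 24 h and -1.80 and -1.93 at 48 h, and was called at 48 h alone (3.64-fold lower, adjusted p = 0.00185 by limma). A_55_P2031676 read -0.39 and -1.40 at 24 h, where its treated signal was well above background on 1 of 2 arrays, and -1.11 and -1.45 at 48 h (adjusted p = 0.00614 by limma). Without the 48 h array of mouse 3 this last call was lost (-1.11). The size of the falls of A_55_P2031676 depended on the processing. Its 24 h value became a call in other settings, among them the software's log ratio and no background correction. Over the other settings its lowest values were -2.92 at 24 h and -2.67 at 48 h, where those of A_55_P2031692 were -3.42 and -3.44. All 3 probes thus fell at 48 h, with means from -3.05 to -1.28.

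Gstp1, the only pi gene among the members followed here, encodes the pi subunit, which is induced in many tissues by electrophiles. It was called only as a rise, at 8 and at 48 h, with values near 0 between them. A_55_P2031668 read 0.85 and 0.39 at 3 h, 1.55 and 1.62 at 8 h, -0.40 and 0.24 at 24 h, 2.02 and 2.11 at 48 h, and -0.05 and 0.55 at 72 h. The 8 h and 48 h arrays stood above all others. It was 3.00-fold higher at 8 h (1.58 ± 0.19, adjusted p = 0.00249 by limma) and 4.17-fold higher at 48 h (2.06 ± 0.19, adjusted p = 0.000262 by limma).

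A_51_P374464 followed it, with 0.83 and 0.53 at 3 h, 1.16 and 1.24 at 8 h, 0.07 and 0.43 at 24 h, 1.67 and 1.54 at 48 h, and -0.31 and 0.69 at 72 h. It was 2.30-fold higher at 8 h (adjusted p = 0.0104 by limma) and 3.04-fold higher at 48 h (adjusted p = 0.00108 by limma). The 8 h calls of both probes were lost with median centring (0.87 and 0.47) and without the 8 h array of mouse 2 (1.62 and 1.24), and that of A_51_P374464 also without the array of mouse 3 (1.16); the 48 h calls were lost in no setting except the rescaling. A separate probe of Gstp2 was 1.08 ± 0.30 at 48 h (adjusted p = 0.0286 by limma). Because Gstp1 and Gstp2 are near-identical copies, signal of one can reach probes of the other, and the rise is uncertain as to which copy it comes from.

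The ratio of Gstp1 near 0 at 24 h was set beside the level of each channel. For A_55_P2031668 the treated livers read 10.99 and 10.71 at 3 h, 11.34 and 11.77 at 8 h, 11.09 and 11.29 at 24 h, 11.64 and 11.48 at 48 h, and 10.02 and 10.41 at 72 h on the log2 intensity scale. The control livers read 10.14 and 10.31, 9.80 and 10.15, 11.50 and 11.05, 9.63 and 9.37, and 10.07 and 9.86 at the same times. The treated livers of 24 h lay close to those of 8 and 48 h, and the control livers of 24 h lay above all other control livers, without overlap.

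For A_51_P374464 the control livers of 24 h read 12.87 and 12.46 against 11.29 to 11.74 at the other times, and the treated livers 12.94 and 12.89. The control level differed over time for both Gstp1 probes (adjusted p = 0.0197 for A_55_P2031668 and 0.0232 for A_51_P374464 by a limma F test), and with the Gstm3 probe they were 3 of 18 members, against 3.96% of all kept probes. This count is not stable: it was 0 without the 24 h array of mouse 1, without either 3 h array, without the 72 h array of mouse 3 and with median centring, and it ranged from 0 to 5 over all settings.

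**Figure D3:**
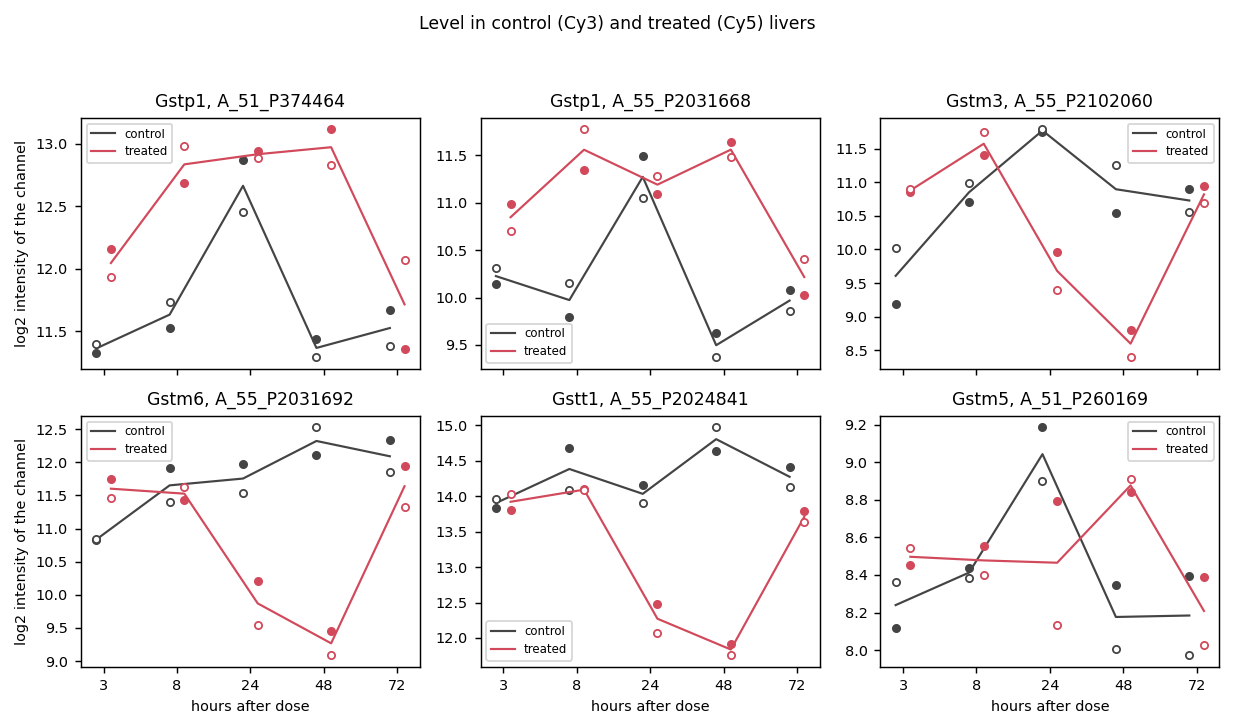
Log2 intensity of the Cy3 channel (control livers, grey) and of the Cy5 channel (treated livers, red) after normalization, against hours after the dose, for 6 probes. Filled points belong to the array of treated mouse 1 (mouse 2 at 8 h), open points to that of mouse 3, and lines join the means; each panel has its own axis. The Gstp1 control livers are highest at 24 h, and the treated livers of Gstt1 and Gstm6 are lowest at 48 h.

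The theta class is thought to be the oldest of the soluble transferases and acts on small halogenated compounds, among others. Gstt1 gave the smallest p-values of the family. Its probe, at chr10:75246560-75246619, read -0.03 and 0.07 at 3 h, -0.58 and -0.01 at 8 h, -1.68 and -1.84 at 24 h, -2.72 and -3.22 at 48 h, and -0.63 and -0.50 at 72 h. It was 3.39-fold lower at 24 h (-1.76 ± 0.15, adjusted p = 0.00043 by limma) and 7.84-fold lower at 48 h (-2.97 ± 0.15, adjusted p = 3.66e-05 by limma), and no setting but the rescaling ended either call. The treated livers of 48 h, at 11.92 and 11.76, lay below all control livers, which read from 13.84 to 14.98 on the log2 intensity scale. At 72 h both arrays were still below 0, but the mean of -0.56 did not pass (adjusted p = 0.906 by limma).

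Gstt3 read 0.54 and 0.28 at 3 h, 0.21 and 0.35 at 8 h, -1.44 and -0.94 at 24 h, -1.43 and -1.09 at 48 h, and -0.06 and -0.02 at 72 h. Its falls of 2.29-fold at 24 h and 2.40-fold at 48 h (adjusted p = 0.00117 and 0.000473 by limma) were nearly alike. Gstt2 read -0.71 and -0.23 at 24 h, where it was not called, and -1.17 and -1.12 at 48 h, where it was 2.21-fold lower (adjusted p = 0.00185 by limma). With median centring the Gstt3 values were -1.90 and -0.62 and the 48 h value of Gstt2 was -0.62, and none of these passed.

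The response differed between time points for 14 of the 18 probes by a moderated F test over the 5 time points, where 22.2% of all kept probes passed. The 14 probes covered 9 genes, Gstm4 being the one without a passing probe; the other 2 probes that did not pass were A_55_P1966438 of Gstm2 and A_55_P2031676 of Gstm6. Between neighbouring times, no probe differed from 3 to 8 h (0.808% of all probes). From 8 to 24 h 8 probes moved down and none up (5.77% of all probes differed), from 24 to 48 h 4 moved up and 2 down (10.2%), and from 48 to 72 h 9 moved up and 3 down (15.9%).

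The move from 8 to 24 h was -2.82 ± 0.39 for the Gstm3 probe A_55_P2102060 and -1.47 ± 0.22 for Gstt1 (adjusted p = 0.0068 and 0.00854 by limma). The Gstp1 ratio moved in the same direction from 8 to 24 h, by -1.67 ± 0.27 for A_55_P2031668. From 24 to 48 h the ratios of Gstt1 and Gstm6 fell further. Those of Gstp1 and Gstm5 rose, by 2.14 ± 0.27 for A_55_P2031668 and 1.28 ± 0.17 for Gstm5. Both channels entered these moves. The treated levels of A_55_P2031668 given above changed less from 24 to 48 h than its control levels. For Gstm5 the mean treated level went from 8.47 to 8.88 and the control level from 9.04 to 8.18. For Gstt1 the treated level went from 12.27 to 11.84 and the control level from 14.03 to 14.81. From 48 to 72 h the ratios of all falling probes that differed moved back up, by 1.22 for Gstt3 to 2.60 for Gstm6 A_55_P2031692. The count of such differences was 26 here, 2 with median centring and 12 with the slide as a fixed block. Whether the 2 and the 12 were all among the 26 was not examined.

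Genes whose ratios ran most like those of the family over the 10 arrays were sought among 17500 other genes; the arrays share treatment times, so the correlations are a description. For the Gstm6 probe A_55_P2031692 the closest were Aspg (r = 0.986), Rdh7, Masp2, Hnf4aos and Itih1 (r = 0.982), with 48 h ratios from -3.24 for Aspg to -1.54 for Hnf4aos. For Gstt1 they were Rdh7 (r = 0.984), Masp2, Afm, Aspg and Cyp2c39 (r = 0.980), and 3 of these genes also stood in the list for Gstm6. For the Gstp1 probe A_55_P2031668 the closest gene was Gss, the glutathione synthetase gene (r = 0.958), with 0.58 at 8 h, -0.000706 at 24 h and 0.71 at 48 h, followed by Nedd4l, Dtnbp1, P4hb and Acox2 (r = 0.918).

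The other glutathione transferases, a list that held Gstm7 and Gstp2, split in direction. Of 16 tested, 2 rose and 2 fell at 8 h, 3 rose and 6 fell at 24 h, and 5 rose and 5 fell at 48 h, with a median of 0.09 at 48 h. Gstp2 was among the 5 that rose at 48 h. The alpha subunit genes Gsta1 and Gsta2, near-identical copies whose probes may share signal, read 3.43 and 3.28 at 24 h and 3.94 and 2.28 at 48 h. The alpha gene Gsta3 fell to -2.00 at 24 h and -2.32 at 48 h, beside the kappa gene Gstk1 (-1.59) and the zeta gene Gstz1 (-1.89) at 48 h.

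Genes that make, recycle and use glutathione moved in both directions. Of 28 tested, 8 rose and 5 fell at 8 h, 6 rose and 7 fell at 24 h, and 12 rose and 7 fell at 48 h. Gclc, which encodes the catalytic subunit of the rate-limiting step, was at 3.31 at 8 h, 1.73 at 24 h and 1.59 at 48 h. Cth, which supplies cysteine, fell to -2.88 at 24 h, and the peroxidase gene Gpx1 to -1.80.

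NRF2 is a transcription factor that electrophiles release to switch on protective genes. Of 30 of its targets outside the transferases, 16 rose and none fell at 8 h, 15 rose and 2 fell at 24 h, and 15 rose and 1 fell at 48 h, with medians of 0.69, 0.67 and 0.51. Some of these targets, among them Gclc, Gclm, Gsr, Txnrd1 and Abcc2, are also counted in the glutathione list above. Abcc2 is the 1 that fell at 48 h. Hmox1, which opens the haem ring, was at 3.16 at 8 h and 1.76 at 24 h, and Srxn1, which repairs oxidised peroxiredoxins, at 2.68 and 2.83. A written form of the core of the element that NRF2 binds, TGACNNNGC, was sought on both strands of RefSeq windows. These ran from 250 bases before to 50 after each start (GRCm38.p6). The form was present for 1 of 9 member genes, Gstm5, and for 3781 of 27025 genes. Gstt2 had no window and was not searched. Other forms of the core were not sought, and the Gstp1 window holds tgagtcagc, with a G in place of the first C of TGACNNNGC. A match is a run of letters and says nothing of binding.

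CAR, a nuclear receptor, regulates drug metabolism genes in hepatocytes. Of 16 of its targets 3 rose and none fell at 8 h, 1 rose and 10 fell at 24 h, and 2 rose and 8 fell at 48 h. The cytochrome genes Cyp2c54 and Cyp3a11 fell to -2.55 and -2.43 at 24 h and to -4.53 and -4.17 at 48 h, while Gadd45b rose to 2.60 at 24 h.

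Acetaminophen injures the hepatocytes around the central vein most, so genes of both ends of the lobule were set beside the family. Of 21 pericentral genes none rose and 9 fell at 24 h, and none rose and 16 fell at 48 h, with medians of -0.84 and -1.22. Some of them, such as Cyp2c29, are also counted among the CAR targets. Of 20 periportal genes none rose and 16 fell at 24 h, and 1 rose and 15 fell at 48 h, with medians of -1.84 and -0.99. Glul, the glutamine synthetase of the innermost pericentral cells, fell to -2.91 at 24 h, and Pck1, a periportal gluconeogenic enzyme, to -3.22.

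**Figure D4:**
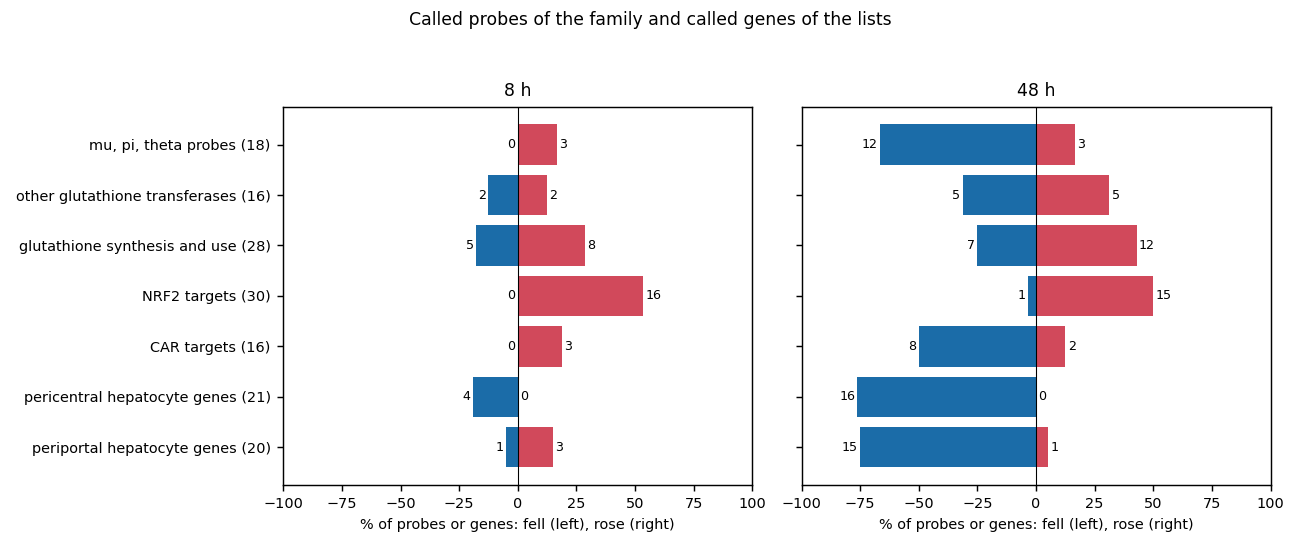
Share of the 18 member probes and of the tested genes of 6 lists (number in brackets) that fell (left, blue) or rose (right, red) at 8 and 48 h by limma, with the counts at the bar ends. At 48 h 12 member probes fell and 3 rose, while 1 of 30 NRF2 targets fell and 15 rose. Some genes stand in several lists.

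Cell markers moved at the same times. All 9 hepatocyte markers on the array were above background in all livers, in keeping with the labelled tissue; none rose and 3 fell at 24 h, and none rose and 4 fell at 48 h. Their summed linear intensity at 48 h was 351500 to 498400 in treated and 802800 to 871400 in control livers, and at 24 h 444000 to 578800 against 626900 to 733000. Of 6 neutrophil markers 4 rose and 1 fell at 48 h, including S100a8 (3.41), but their summed intensity overlapped, at 23020 to 31580 in treated and 25740 to 30570 in control livers. Of 10 markers of recruited monocytes and macrophages 5 rose and 1 fell (summed 11750 to 18240 against 10300 to 13620), and of 7 Kupffer cell markers 1 rose, Marco (summed 12640 to 17270 against 3892 to 3906). Marco stood at 3.76, while the median of the Kupffer cell markers was 0.116. Of all kept probes 18% rose and 12.7% fell at 48 h. The part of these shifts in the family's falls was not tested.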

How the data were processed

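Liver total RNA of 10 treated and 10 control mice was hybridised to 10 Agilent 2-colour arrays. Spot intensities were deposited as scanner output of Agilent Feature Extraction 10.7.3.1, per the file headers, on the mm9 build. The deposited value table holds a score that the authors made from the scanner's log10 ratio, by its values; it ran at a slope of 1.44 against that deposited log10 ratio, correlating at 1, each column's median was 0, and its scale is not given in the sources used here. It served as an alternative only.

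Mean intensities were background-corrected (normexp on median background, offset 50) and loess-normalized within arrays in limma 3.58.1 (R 4.3.3). Control spots (1377) had weight 0 and 2718 outlier spots were left out over all arrays. Spots of a probe were averaged. A probe was kept when both arrays of a time point had it well above background in the same channel. limma was fitted to all kept probes with 5 time-point terms and 5 residual degrees of freedom, with Benjamini-Hochberg adjustment. Neighbouring times were compared by contrasts. Channel levels were taken after Aquantile normalization between arrays, and the control levels tested by F over time. The fitting was tested on simulated data.

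Each probe was treated on its own, and every member probe is named. In each class the probe with the smallest F p-value was used to find the 5 genes most alike. From the lists of other glutathione transferases, glutathione synthesis, NRF2 targets, CAR targets, pericentral and periportal genes, up to 4 called genes at 8 h and 24 h were eligible for naming; the 48 h values and the markers named were chosen after their values were seen. The members and lists were chosen with earlier results of these data known. Slide 1 held arrays of 3 and 8 h, slide 2 of 24, 48 and 72 h, slide 3 of 8, 48 and 72 h, and slide 4 of 3 and 24 h. No slide held both an 8 h and a 24 h array, so that step compares arrays of different slides. Each of 2 scan days held 1 array per time point, so the values per array are also those within a scan day. Precision is limited by 2 arrays per time point. No member spot was saturated. Exon and UTR positions of the probes were not analysed here.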

Additional observations from a re-analysis of the deposited data

Results flagged for a closer look

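The log2 ratio of treated over control liver differed between neighbouring time points, by the limma contrast itself, for 26 of 72 pairings of a member probe with a step in time. The differences are given as later minus earlier.

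From 8 to 24 h the Gstm1 probes differed by -2.42 (A_55_P1966432) and -2.15 (A_55_P2062190), the Gstm3 probes by -2.36 (A_55_P2065231) and -2.82 (A_55_P2102060), and the Gstm6 probe A_55_P2031692 by -1.76. Gstp1 A_55_P2031668 differed by -1.67, Gstt1 by -1.47 and Gstt3 by -1.48 over the same step.

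From 24 to 48 h the difference was 1.03 for Gstm4 A_51_P327585, 1.28 for Gstm5, and 1.35 and 2.14 for Gstp1 A_51_P374464 and A_55_P2031668. Gstm6 A_55_P2031692 and Gstt1 went the other way, by -1.17 and -1.21.

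From 48 to 72 h Gstm1 differed by 1.66 (A_55_P1966432) and 2.54 (A_55_P2062190), Gstm3 by 1.48 (A_55_P2065231) and 2.39 (A_55_P2102060), and Gstm6 by 1.65 (A_55_P2031671) and 2.60 (A_55_P2031692). The theta genes differed by 2.41 for Gstt1, 1.41 for Gstt2 and 1.22 for Gstt3. Gstm5 and Gstp1 went down over this step, Gstm5 by -0.68 and Gstp1 by -1.42 (A_51_P374464) and -1.81 (A_55_P2031668).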

How the results depend on the processing

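Of 203 counts recomputed under other settings, 166 stayed within 1.5 times the values given. The 166 include the counts at 72 h, which were 0 in every setting. The software's log ratio and the value table gave the same counts and enter separately. The tally therefore does not measure how well single calls held. Of the 29 calls of single probes, 0 held in every setting. Median centring gave 2 calls at 3 h, both falls of Gstm2 (-0.72 for A_51_P284486 and -0.89 for A_55_P2134004, which were 0.41 and 0.22 with loess), 5 probes differing over time, 2 differences between neighbouring times and 0 probes differing between control livers. Scaling between arrays gave 0 calls at 3, 8 and 48 h (0, 0 and 0), 2 at 24 h that were not calls before (Gstm2 A_55_P1966438 and Gstm6 A_55_P2031676), 0 over time and 0 between neighbours. With 1 probe per gene the counts were 0 at 3 h, 9 at 48 h, 9 over time, 17 between neighbours and 1 in control livers, with fewer member probes tested. The stricter filter gave 3 at 3 h. An offset of 0 and quantile normalization each gave 1 in control livers. The slide as a fixed block gave 0 at 3 h, 9 over time and 12 between neighbours. The replicate block gave 2 at 3 h, 0 at 8 h and 5 in control livers, and ended the calls of both Gstp1 probes and of Gstm3 A_55_P2065231 at 8 h and of Gstm5 at 24 h (adjusted p = 0.0505 by limma); same-numbered arrays did not all deviate together (correlations from -0.03 to 0.31), so the numbers were not taken as pairs.

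Leaving out each array in turn, the counts ranged from 0 to 2 at 3 h, 0 to 3 at 8 h (0 without mouse 2 and 1 without mouse 3), 5 to 11 at 24 h (5 without mouse 3), 11 to 16 at 48 h, 0 to 0 at 72 h, 12 to 15 over time, 19 to 28 between neighbours and 0 to 4 in control livers; the lone array left is assumed to vary like the others. Outside the scaling, 4 of 10 calls at 24 h, 8 of 15 at 48 h and none of the earlier ones held throughout. The cause of these changes was not tested.

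Over all probes, calls at 3 h numbered 2099 with the settings used and 8051 with median centring, 1280 with the software's log ratio or the value table, 0 with scaling and 358 with the slide block. At 8 h 3643 became 2373 with offset 0, 1086 with scaling, 246 with the replicate block and 1667 with the slide block. At 24 h 2992 became 901 with centring, 5994 without background correction, 5176 with the software's ratio, 435 with scaling and 1757 with the slide block. At 48 h 9097 became 3851, 1196 and 4321 with centring, scaling and the slide block. At 72 h the count went from 0 to at most 4. Without 1 array the counts became 487 (mouse 1) and 1288 (mouse 3) at 3 h, 440 (mouse 2) at 8 h, 1521 (mouse 3) at 24 h and 3994 (mouse 3) at 48 h, and in control livers they went down to 93 without the 3 h array of mouse 3. In control livers 1173 ranged from 83 with the slide block to 2505 with the replicate block. Signal over background limited 1 value, that of Gstm6 A_55_P2031676 at 24 h.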

Other observations

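The remaining marker lists of other liver cells had few calls at 48 h. Of 7 cholangiocyte markers Sox9 (0.90) and Spp1 (1.11) rose and Cftr (-0.42) fell, with a summed intensity of 1591 to 3868 in treated and 1321 to 1853 in control livers. Of 9 sinusoidal endothelial markers 2 rose and none fell, and of 9 stellate cell markers 1 rose and 1 fell. None of 10 lymphocyte and none of 4 erythroid markers passed the limma test, and of 3 adipocyte markers 1 fell.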
